A study of Mus musculus with 10 samples.

Results

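The 10 annexin genes described here, Anxa1 to Anxa9 and Anxa11, were followed across 10 mouse tumors on an Agilent expression array with a red and a green channel. They were chosen by name: every non-control probe whose gene name was an annexin of this list, or a synonym of it, was taken, which gave 16 probes of the 40196 in the deposited normalized table. All 10 genes had at least 1 probe, 5 had several, and the brightest probe in the tumor channel stood for its gene. Each value is a log2 ratio of tumor RNA over a common reference RNA, so a difference of 1 is a ratio of 2 between tumors.

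The study compared 5 metastatic sarcomatoid tumors, whose cells are spindle-shaped, with 5 adenocarcinomas of the mouse mammary gland. The primary tumors arose in MMTV-Cre mice, and the 2 lung tumors grew in mice injected with cell lines. By the methods, 1 sarcomatoid primary carried Pik3ca H1047R with Trp53 R270H, 1 carried Pik3ca H1047R and had gained a spontaneous Trp53 R245H mutation, and 1 carried Trp53 R270H without the Pik3ca allele. Cell lines of the first 2 gave the 2 lung tumors. All 5 adenocarcinomas (tumors 105, 131, 470, 17 and 85) were primary tumors with Pik3ca H1047R and Trp53 R270H. The labels name mammary tumors 323, 307 and 594 and transplanted lung tumors 323 and 307, so the sarcomatoid group has 3 tumor origins. They give no genotype by number. As the only sarcomatoid number without a lung tumor, 594 is by elimination the primary without the Pik3ca allele. Which of 323 and 307 carried which Trp53 mutation is not given. Tumor 594 was labelled sarcomatoid carcinoma and the other 4 sarcomatoid adenocarcinoma. MMTV-Cre switches on the alleles mainly in mammary epithelium, each lung tumor came through a cell line injected into the tail vein, and ages were not given in the sources used here.

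Annexins bind acidic phospholipids of membranes when calcium rises, through a conserved core of repeats, and each has its own N-terminal tail. Several of these tails dock on S100 proteins, small calcium-binding dimers, and a dimer can then join a pair of annexins and the membranes they sit on. In epithelial and mesenchymal cells annexins are known for work at the plasma membrane, including vesicle traffic, membrane repair, plasmin formation at the cell surface (Anxa2 with S100a10) and the dampening of inflammation (Anxa1).

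The direction of every ratio is likely, not settled. The red channel was read as tumor because the green channel varied less between arrays (mean SD of log2 signal 0.737 against 0.975), although the samples carry a Cy3 (green) dye label, and the study's text also gives S100a4 as higher in sarcomatoid tumors. That text also gives Plau as higher and Epcam as lower in the metastatic tumors, the directions found here with red read as tumor. If the label were right, every log2 ratio and difference below would change sign, while the correlations between genes would not. The deposited columns tracked the red over green ratio of their own array (r from 0.869 to 0.926 across probes).

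Tumor 470 stood apart from the other adenocarcinomas in its cell type markers. The mean log2 ratio of 10 epithelial markers, such as Epcam and Cdh1, was -1.40 in tumor 470 and between 3.20 and 3.51 in the other 4 adenocarcinomas. It lay between 0.98 and 1.74 in the mammary sarcomatoid tumors and at -2.46 and -1.60 in the lung tumors. Of the 7 macrophage markers, the mean was 2.75 in tumor 470, between 0.41 and 1.84 in the other adenocarcinomas and between 2.39 and 3.28 in the sarcomatoid tumors. The mean of the 10 fibroblast markers was 1.76 in tumor 470, the highest of the 10 tumors, between -2.22 and 0.31 in the other adenocarcinomas and between -1.0 and 1.71 in the sarcomatoid tumors. These are whole tumor pieces, in which fewer cells of a type and less RNA per cell cannot be told apart. Differences between the groups are therefore given with and without tumor 470 for the brightest probe of each annexin. This tumor was singled out from these same data, so a difference that passes only without it is a description and no independent support. The part of these markers in the annexin values was not tested. Of 7 lung epithelium markers, 4 were well above background on both lung arrays and 5 on all 3 mammary sarcomatoid arrays, while the surfactant genes Sftpb and Sftpa1 were on neither lung array. The mean of the 7 lung markers was 0.92 and 1.0 in lung tumors 323 and 307 and between 0.14 and 0.62 in the mammary sarcomatoid tumors. By gene, 6 had a higher mean in lung than in mammary sarcomatoid tumors, among them Scgb3a1 (1.55), Sftpc (1.46) and Scgb1a1 (0.78). The mean of 1, Sftpa1, was lower (-0.55), and 0 of the 7 passed an adjusted p of 0.05 by limma.

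No annexin passed an adjusted p of 0.05 between sarcomatoid tumors and adenocarcinomas (limma, Benjamini-Hochberg adjustment over all probes), and neither did any other probe (0 of 40196, 0%; 3709 had an unadjusted p below 0.05). The annexin differences ran from 1.03 log2 units higher in sarcomatoid tumors (Anxa5) to 1.69 lower (Anxa8). The group mean was higher in sarcomatoid tumors for 7 of the 10 genes and lower for 3, with a median difference of 0.19 against -0.00167 over all probes. At an unadjusted p of 0.05, 1 of the 10 genes (Anxa5) differed, while 9.23% of all probes did, so the share of annexins was near the background. The 2 groups overlapped for all 10 genes, and 1.33% of all probes had groups that did not overlap. Without tumor 470 again 0 of the 10 annexins passed, beside 618 probes in all (1.54%). At an unadjusted p of 0.05, 2 of the 10 (Anxa2 and Anxa5) then differed, beside 5702 of the 40196 probes. The scan batches named here are the 3 versions of the extraction protocol in the file headers. Within scan batch 3 alone 293 probes passed (0.729%) and within scan batch 2 alone 0 (1812 at an unadjusted p of 0.05), with 0 annexins in either. In scan batch 3 the only sarcomatoid tumors were the lung tumors, set against mammary adenocarcinomas 131, 17 and 85. A group difference there cannot be told apart from one of site or of passage through a cell line. Scan batch 2 set mammary tumors 307 and 594 against adenocarcinomas 105 and 470. In the fits with and without tumor 470, the lung and mammary tumors of the same number counted as separate tumors. The p-values of those fits therefore do not rest on independent tumors alone.

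**Figure D1:**
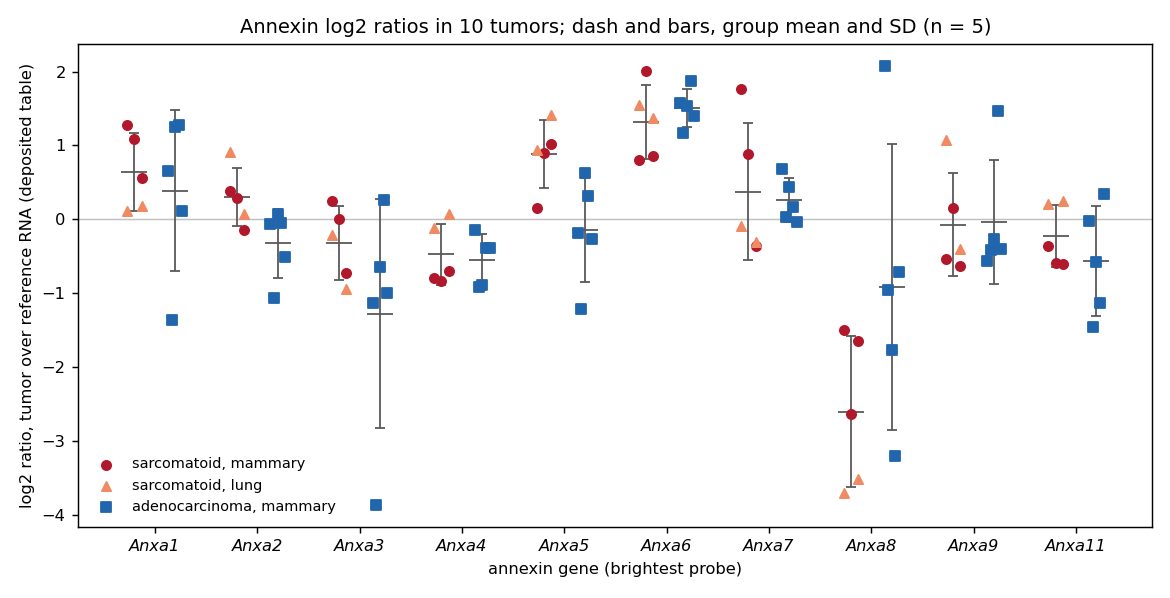
Log2 ratio of tumor over reference RNA (y axis) of the brightest probe of each annexin (x axis) in the 10 tumors, with dashes for group means and bars for the SD of 5 tumors. The groups overlap for every gene, Anxa8 has the widest range and tumor 131 holds the lowest Anxa3 value, -3.86.

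Anxa5, the phosphatidylserine binder used to stain dying cells, had the lowest p of the annexins' brightest probes in this comparison. Its log2 ratios were 0.15, 0.90 and 1.02 in mammary sarcomatoid tumors 323, 307 and 594 and 0.94 and 1.41 in lung tumors 323 and 307. The adenocarcinomas had -0.18 (tumor 105), -1.21 (131), 0.63 (470), 0.32 (17) and -0.27 (85). The other sarcomatoid values stood above every adenocarcinoma, and mammary tumor 323 alone fell within their range. The means were 0.88 ± 0.46 and -0.14 ± 0.70 (SD, n = 5 each), a difference of 1.03 (SE 0.36, 95% confidence interval 0.23 to 1.82) or a ratio of 2.04, with an adjusted p of 0.432 by limma. Within scan batch 2 the difference was 0.73 and within scan batch 3 it was 1.56, and without tumor 470 it was 1.22 (limma adjusted p = 0.131). The fibroblast markers had higher means in sarcomatoid tumors as well, in 10 of 10, with a median difference of 1.02 (1.66 without tumor 470), and their part in the Anxa5 values was not tested.

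Anxa8, an annexin of epithelia, varied most. Its log2 ratios were -1.50, -2.64 and -1.65 in mammary tumors 323, 307 and 594 and -3.70 and -3.51 in lung tumors 323 and 307. The adenocarcinomas ran from 2.08 (tumor 105) over -0.71 (85), -0.96 (131) and -1.77 (470) to -3.20 (17). The lung tumors were the lowest of the 10, and adenocarcinoma 105 stood alone as the only tumor above its reference. That spread made a 54.9-fold range between the highest and the lowest tumor. The means were -2.60 ± 1.02 and -0.91 ± 1.93 (SD, n = 5 each), and the difference of -1.69 (SE 0.83, 95% confidence interval -3.49 to 0.11) did not pass (limma adjusted p = 0.563). It was -2.30 within scan batch 2, -1.98 within scan batch 3, -1.90 without tumor 470 (limma adjusted p = 0.363) and -0.94 without tumor 105.

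Anxa2, which forms a tetramer with S100a10 and also binds S100a4, was measured by 2 probes. The brighter one gave 0.38, 0.28 and -0.14 in mammary tumors 323, 307 and 594 and 0.91 and 0.08 in lung tumors 323 and 307. The adenocarcinomas had -0.06 (tumor 105), -1.06 (131), 0.08 (470), -0.05 (17) and -0.51 (85). Tumor 594 fell within the adenocarcinoma range, lung tumor 307 lay level with tumor 470, and tumors 131 and 85 were the lowest. The difference was 0.62 (SE 0.30, 95% confidence interval -0.02 to 1.27, limma adjusted p = 0.553), or 0.72 without tumor 470 (limma adjusted p = 0.328). The other probe gave 0.80 (SE 0.29, limma adjusted p = 0.442). The brighter probe differed by 1.04 within scan batch 3 and by 0.064 within scan batch 2.

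Anxa1, the glucocorticoid-induced annexin that signals through formyl peptide receptors and binds S100a11, showed no shift beyond its spread. Its log2 ratios were 1.28, 1.08 and 0.56 in mammary tumors 323, 307 and 594 and 0.11 and 0.18 in lung tumors 323 and 307. The adenocarcinomas had 0.65 (tumor 105), -1.36 (131), 1.25 (470), 1.28 (17) and 0.11 (85). Apart from tumor 131, every tumor lay above the reference, and the highest values came from tumors of either group. The difference was 0.26 (SE 0.48, 95% confidence interval -0.80 to 1.31, limma adjusted p = 0.914). Without tumor 131 it was -0.18, without tumor 470 it was 0.47, and within scan batches 2 and 3 it was -0.13 and 0.13.

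Anxa11, whose long N-terminal tail holds binding sites for S100a6 and Pdcd6, had -0.36, -0.60 and -0.61 in mammary tumors 323, 307 and 594 and 0.21 and 0.25 in lung tumors 323 and 307. The adenocarcinomas had -0.03 (tumor 105), -1.46 (131), -0.58 (470), -1.13 (17) and 0.34 (85). The sarcomatoid values fell by site, with the lung tumors above the mammary ones, and all lay inside the adenocarcinoma range. The difference was 0.35 (SE 0.37, limma adjusted p = 0.821), and its sign differed by scan batch, with -0.30 within batch 2 and 0.97 within batch 3. Without tumor 470 the difference was 0.35.

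Anxa3, found in neutrophils and many epithelia, differed by 0.95 (SE 0.63, 95% confidence interval -0.42 to 2.32, limma adjusted p = 0.687), and tumor 131 carried much of the spread. The sarcomatoid tumors ran from -0.94 to 0.25. The adenocarcinomas were at -1.13 (tumor 105), -3.86 (131), -0.65 (470), 0.27 (17) and -0.99 (85). The group SD was 0.50 for sarcomatoid tumors and 1.55 for adenocarcinomas. Leaving out tumor 131 brought the difference to 0.30, and leaving out tumor 470 brought it to 1.11.

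The 4 remaining annexins differed by 0.19 log2 units or less. Anxa4, an annexin of epithelial secretory membranes, differed by 0.07 (95% confidence interval -0.53 to 0.67). Anxa6, the only annexin with a doubled core and a partner of S100a1 and S100b, differed by -0.19 (95% confidence interval -0.81 to 0.42). Anxa7, the annexin also called synexin, differed by 0.12 (95% confidence interval -0.77 to 1.0). Anxa9, an annexin whose core has lost the usual calcium sites, differed by -0.03 (95% confidence interval -1.01 to 0.94). All 4 intervals span 0, and for Anxa4, Anxa7 and Anxa9 the sign changed with the processing. Without tumor 470 the differences of Anxa4, Anxa6, Anxa7 and Anxa9 were -0.02, -0.19, 0.16 and -0.09.

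**Figure D2:**
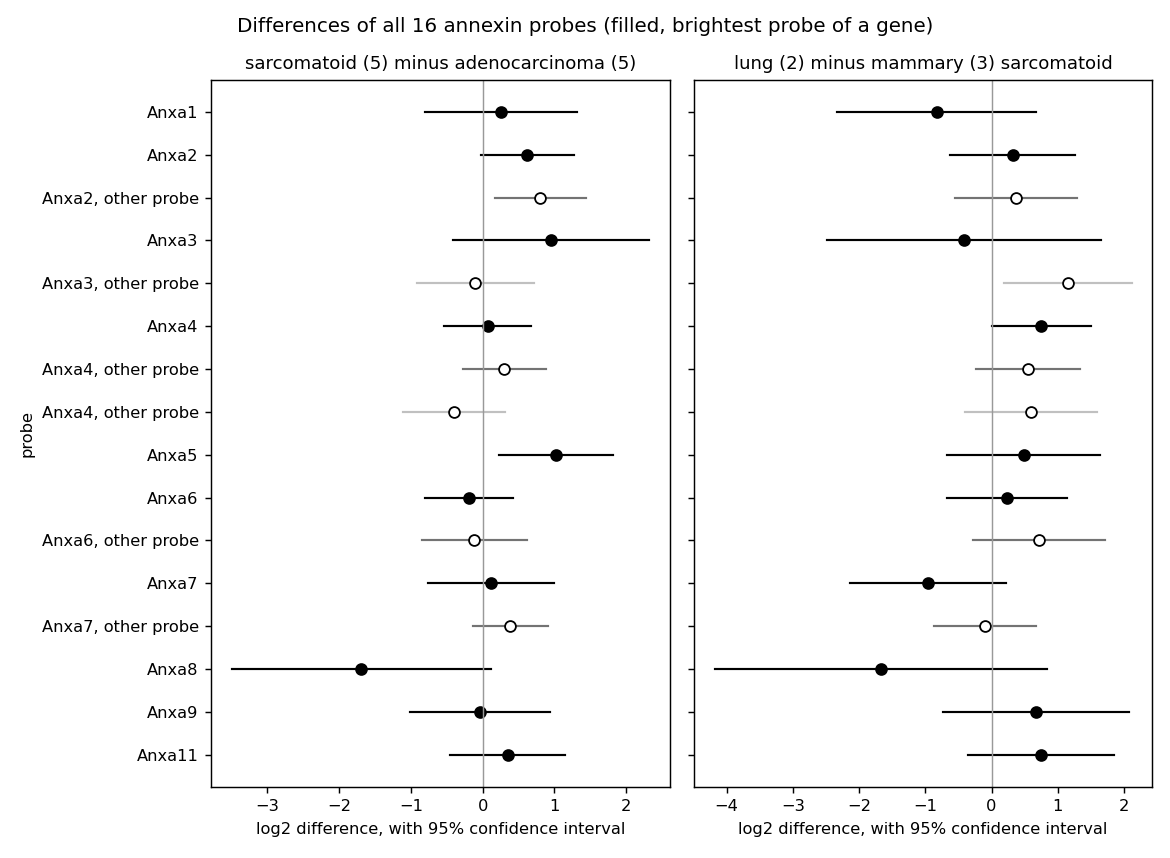
Log2 difference (x axis) with its 95% confidence interval for each of the 16 annexin probes (y axis, filled circles for the brightest probe of a gene, pale lines for probes not well above background on all arrays), between sarcomatoid tumors and adenocarcinomas on the left and between lung and mammary sarcomatoid tumors on the right. The intervals of Anxa5 and of the other Anxa2 probe on the left, and of Anxa4 and the dim Anxa3 probe on the right, lie above 0 without passing the adjusted threshold, and that of Anxa8 is the widest in both panels.

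Among themselves the annexins shared their lowest tumor more than their highest. Tumor 131 was the lowest of the 10 tumors for 6 of the 10 genes, Anxa1, Anxa2, Anxa3, Anxa4, Anxa5 and Anxa11, while it was the lowest for 13.4% of all probes. Its mean over the annexins was -1.0, against -0.24 to 0.29 in the other 9 tumors. Tumor 131 also had the lowest mean of the fibroblast markers (-2.22) and of the macrophage markers (0.41), and the part of those cells in its annexin values was not tested. The highest values were spread over 7 of the 10 tumors, in either group, with at most 2 annexins each.

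Of the 16 probes, 14 were well above background in the tumor channel on all 10 arrays, and none was saturated. The exceptions were a second Anxa3 probe, well above background on 1 array, and the dimmest Anxa4 probe, on 2 arrays. Probes of the same gene gave like differences for Anxa2 and for Anxa6 (-0.19 and -0.11), while the Anxa3 probes differed in sign (0.95 and -0.10). The Anxa4 probes gave 0.07, 0.30 and -0.39, the last from the dim probe. The Anxa7 probes gave 0.12 and 0.39.

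The positions come from the array annotation on mouse build mm7, and exon or untranslated region annotation of that build was not used here. The Anxa5 probe lies on chromosome 3 from 36259980 to 36260039 and the Anxa9 probe on the same chromosome from 95170331 to 95170390. The Anxa8 probe lies on chromosome 14 from 31533094 to 31533153, with the Anxa11 probe from 23558469 to 23558528 and the brighter Anxa7 probe from 18115490 to 18115549 on the same chromosome. The brighter Anxa2 probe lies on chromosome 9 from 69521491 to 69521550.

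The lung tumors were then set against the mammary sarcomatoid tumors. This asks whether lung growth after culture and injection goes with other annexin levels. No annexin passed an adjusted p of 0.05, and 10 of all probes did (0.0249%). At an unadjusted p of 0.05, 1 of 10 annexins (Anxa4) differed, against 10.7% of all probes. Both lung tumors fell in scan batch 3 and all 3 mammary sarcomatoid tumors in scan batches 1 and 2, so site and batch can be separated only through the adenocarcinomas. Each lung tumor also grew from a cell line in another mouse, so site cannot be told apart from culture or transplantation. The fit on groups did not pair the tumors of the same number. Mammary tumor 594, which has no lung counterpart, was by elimination the primary without the Pik3ca allele.

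Anxa4 was higher in lung by 0.75 (SE 0.34, 95% confidence interval 0.0017 to 1.49, limma adjusted p = 0.466). Its log2 ratios were -0.12 and 0.07 in lung tumors 323 and 307 and -0.80, -0.83 and -0.70 in mammary tumors 323, 307 and 594. The lung values did not overlap with the mammary ones, and the lung tumor was above its mammary counterpart by 0.68 for tumor 323 and by 0.90 for tumor 307. Anxa11 had the same order, with a difference of 0.75 (SE 0.50, limma adjusted p = 0.628) and pair differences of 0.57 and 0.84. Anxa5 was also higher in the lung tumor of both numbers, by 0.79 and 0.52, with a group difference of 0.48 (limma adjusted p = 0.783).

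A set of 4 annexins was lower in the lung tumor of both numbers. Anxa8 was lower by -2.20 in tumor 323 and -0.87 in tumor 307 (group difference -1.67, SE 1.14, limma adjusted p = 0.632). Anxa1 was lower by -1.17 and -0.91 (group difference -0.83, SE 0.68, limma adjusted p = 0.700). The lung values of these genes lay below all 3 mammary sarcomatoid tumors. Anxa7 was lower by -1.86 and -1.18, with mammary tumor 594 at -0.37 below both lung tumors, and its second probe gave 0.07 and -0.52. Anxa3 was lower by -0.45 and -0.95, again with mammary tumor 594 between the lung values, while its dim second probe was higher by 1.02 and 1.67.

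The brightest probes of the remaining 3 annexins, Anxa2, Anxa6 and Anxa9, differed in opposite directions in the pairs. The second Anxa6 probe was higher in both lung tumors, by 1.46 and 0.34. Anxa9 was higher in lung tumor 323 by 1.60 and lower in lung tumor 307 by -0.55. By their brightest probes, 3 of 10 annexins were thus higher and 4 lower in both lung tumors, where 30.6% of all probes were higher and 30.7% lower. With scan batch as a term, the signs of Anxa1 (0.26), Anxa3 (0.42), Anxa7 (0.047), Anxa8 (0.31) and Anxa9 (-0.051) turned, each with a limma adjusted p above 0.98. With the tumor number as a block for the 2 pairs, 0 of 40196 probes passed by limma (5336 had an unadjusted p below 0.05).

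**Figure D3:**
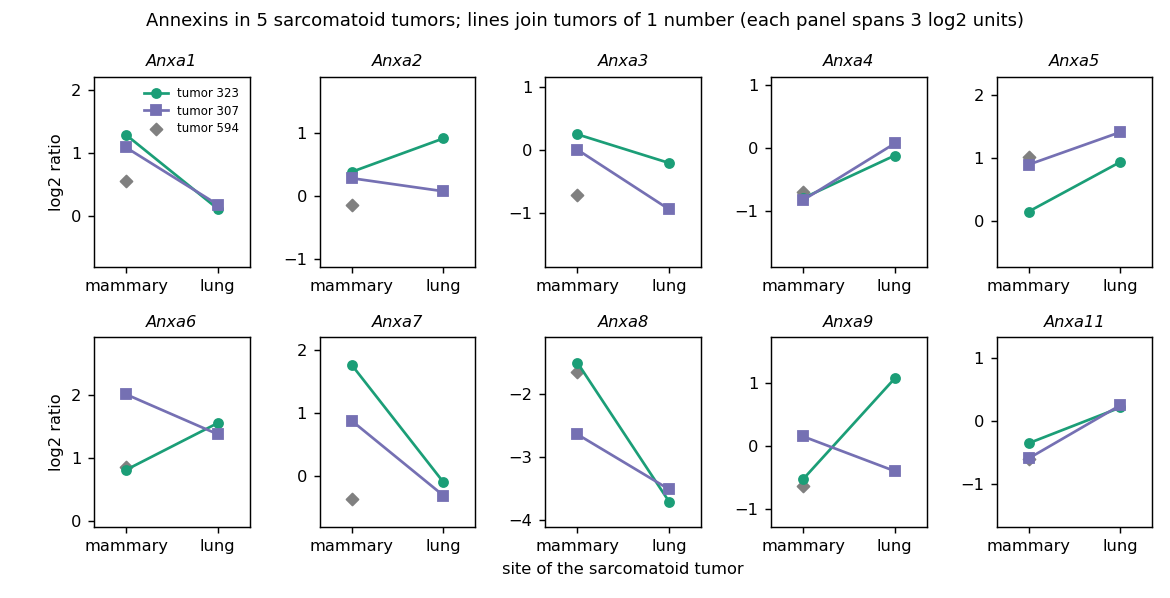
Log2 ratio (y axis, 3 log2 units in each panel) of 10 annexins in mammary and lung sarcomatoid tumors (x axis), with a line joining the tumors of the same number and a diamond for mammary tumor 594. Anxa4, Anxa5 and Anxa11 rise and Anxa1, Anxa3, Anxa7 and Anxa8 fall from mammary to lung in tumor 323 as in tumor 307.

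The S100 proteins that bind annexins had a median difference of 1.19 between sarcomatoid tumors and adenocarcinomas, beside 0.19 for the annexins, and the gap between the lists was not tested. Of 6 S100 partners, 4 had a higher mean in sarcomatoid tumors at an unadjusted p of 0.05, a level that 9.23% of all probes reached, and 0 passed after adjustment. S100a4, which promotes motility and binds Anxa2, differed by 4.35 (SE 0.88, limma adjusted p = 0.330) and by 4.87 without tumor 470 (limma adjusted p = 0.0249). It differed by 6.58 within scan batch 3 (limma adjusted p = 0.00987), where the sarcomatoid tumors were the lung tumors. Within scan batch 2 it differed by 1.33, which did not pass. The groups overlapped, with mammary sarcomatoid tumor 307 at -2.67 below adenocarcinoma 470 at -2.01. S100a10, the Anxa2 partner, differed by 1.36 (SE 0.53, limma adjusted p = 0.469). S100a6 differed by 1.42 (SE 0.53, limma adjusted p = 0.451) and S100a11 by 1.02 (SE 0.37, limma adjusted p = 0.435). The S100a11 value of tumor 17 came from a spot that the scanner flagged as an outlier. From scanner intensities with loess, where that spot was left out, the S100a11 difference was 0.68. S100a1 (-0.08) and S100b (-1.67) had lower means. S100a6 was also 1.51 higher in lung than in mammary sarcomatoid tumors (SE 0.65, limma adjusted p = 0.447), and by 1.50 and 1.74 in the pairs.

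Among receptors and targets of Anxa1, 3 of 4 genes had a probe, and Fpr3 had none here. By their brightest probes Fpr1 and Fpr2, the formyl peptide receptors of myeloid cells through which Anxa1 acts, passed only once tumor 470 was left out. That tumor was singled out by marker values of these same data, macrophage markers among them, so this is no independent support. These probes were well above background on 9 arrays. Fpr2 had 4.57, 4.51 and 5.29 in mammary tumors 323, 307 and 594 and 5.00 and 3.70 in lung tumors 323 and 307. The adenocarcinomas had 2.36 (tumor 105), 0.91 (131), 5.73 (470), 1.41 (17) and 0.16 (85). Tumor 470 was the highest of all 10 tumors, and the other 4 adenocarcinomas lay below every sarcomatoid tumor. The Fpr2 difference was 2.50 with all tumors (SE 0.85, limma adjusted p = 0.414) and 3.41 without tumor 470 (SE 0.46, limma adjusted p = 0.0159). A second Fpr2 probe, well above background on 7 arrays, gave 1.18, and 1.46 without tumor 470, which did not pass (limma adjusted p = 0.121). From scanner intensities with loess, the Fpr2 difference over all tumors was 1.56. For Fpr1 it was 1.45 (SE 0.50, limma adjusted p = 0.415) and 1.97 (SE 0.28, limma adjusted p = 0.0177). The macrophage markers moved the same way, as given above, and Pla2g4a, the phospholipase that Anxa1 restrains, differed by 0.80 (limma adjusted p = 0.647).

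By their brightest probes, all 5 genes of plasmin assembly had a higher mean in sarcomatoid tumors. Anxa2 with S100a10 promotes this assembly at the cell surface. Without tumor 470, 1 of the 5 passed (1.54% of all probes). Plau, the urokinase that cleaves plasminogen, differed by 2.68 (SE 0.62, limma adjusted p = 0.330), and by 3.10 without tumor 470 (SE 0.56, limma adjusted p = 0.0295). A second Plau probe, well above background on 8 arrays, gave 1.30, and 1.37 without tumor 470, which did not pass (limma adjusted p = 0.124). Plat, the tissue activator, differed by 0.47 and Ahnak, a scaffold bound by the Anxa2 tetramer, by 0.48. Their other probes differed in sign, with -0.23 and 0.60 for Plat and -0.28, 0.23, 0.26, 0.38 and 0.50 for Ahnak. Plg itself was well above background on 1 array, of an adenocarcinoma, so its sign has little weight. Its other probe, well above background on no array, gave -0.18.

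Of the 7 membrane repair and calcium partners, 6 had a probe and Trim72 had none here. None passed with or without tumor 470, and 3 differed at an unadjusted p of 0.05 (9.23% of all probes), all with higher means in sarcomatoid tumors. These were Sri, a calcium-dependent partner of Anxa7 (1.05, SE 0.31, limma adjusted p = 0.369), the repair protein Myof (0.84, SE 0.34, limma adjusted p = 0.480) and the calpain subunit Capn2 (1.37, SE 0.51, limma adjusted p = 0.454). Pdcd6, a partner of Anxa7 and Anxa11, differed by -0.39, Dysf by -0.24 and Capn1 by 0.08. Of the annexins outside the list, Anxa10 was well above background on 2 arrays and Anxa13 on 7, and they differed by -0.09 and -0.13.

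**Figure D4:**
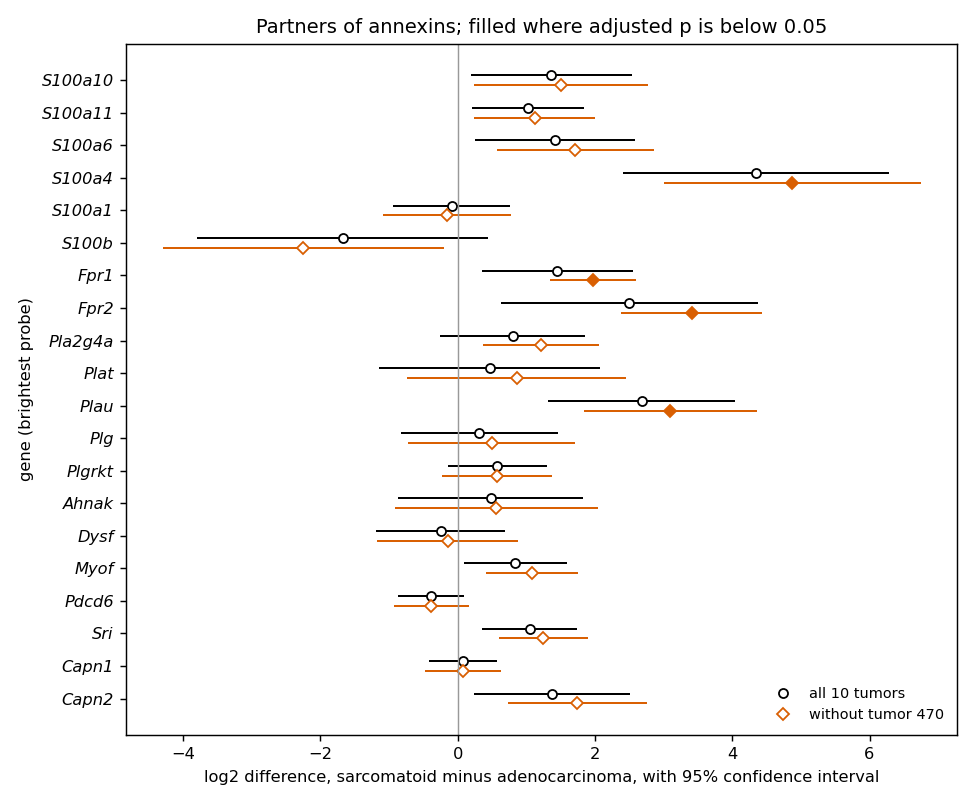
Log2 difference between sarcomatoid tumors and adenocarcinomas (x axis) with its 95% confidence interval for 20 partner genes of the annexins (y axis), over all 10 tumors (circles) and without tumor 470 (diamonds), filled where the limma adjusted p is below 0.05. The brightest probes of S100a4, Fpr1, Fpr2 and Plau pass without tumor 470 and none passes with it.

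In all, 4 annexin and S100 pairs known to bind were compared across the 8 tumor numbers, with the lung and mammary tumors of a number averaged. Anxa2 and S100a10 correlated by Pearson's r (0.85, exact two-sided permutation p = 0.0124, adjusted over the 4 pairs 0.0495), while Spearman's rho did not pass (0.69, exact permutation p = 0.0694, adjusted 0.139). The adjusted p of r stayed below 0.05 in 2 of the 8 cases in which a tumor was left out. Without tumors 131 and 323, the farthest from the median of Anxa2, r was 0.76, and leaving out tumor 323 alone gave 0.75 (adjusted exact permutation p = 0.193). With the scan batch means subtracted, r was 0.87 over 9 arrays, where arrays of the same tumor number counted as separate points.

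Anxa2 and S100a4 had r = 0.74 (exact permutation p = 0.0279, adjusted 0.0559) and rho = 0.71 (exact permutation p = 0.0576, adjusted 0.139). Without tumors 131 and 323, r was 0.57. Anxa1 and S100a11 had r = -0.04 (exact permutation p = 0.920, adjusted 0.920) and rho = 0.02 (exact permutation p = 0.977, adjusted 0.977), and r was 0.16 without tumors 131 and 17. The S100a11 value of tumor 17 (-1.80) came from a spot that the scanner flagged as an outlier. Without tumor 17 alone r was 0.60 (exact permutation p = 0.145, adjusted 0.193), and without tumor 131 alone it was -0.47. Anxa11 and S100a6 had r = -0.19 (exact permutation p = 0.656, adjusted 0.875) and rho = -0.17 (exact permutation p = 0.703, adjusted 0.938), and r was -0.70 without tumors 131 and 17. The genes of the pairs with Anxa2 also had higher means in sarcomatoid tumors. With the group means subtracted and tumors permuted within their group, r of Anxa2 was 0.77 with S100a10 (exact permutation p = 0.0514, adjusted 0.206) and 0.61 with S100a4 (exact permutation p = 0.154, adjusted 0.308).

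**Figure D5:**
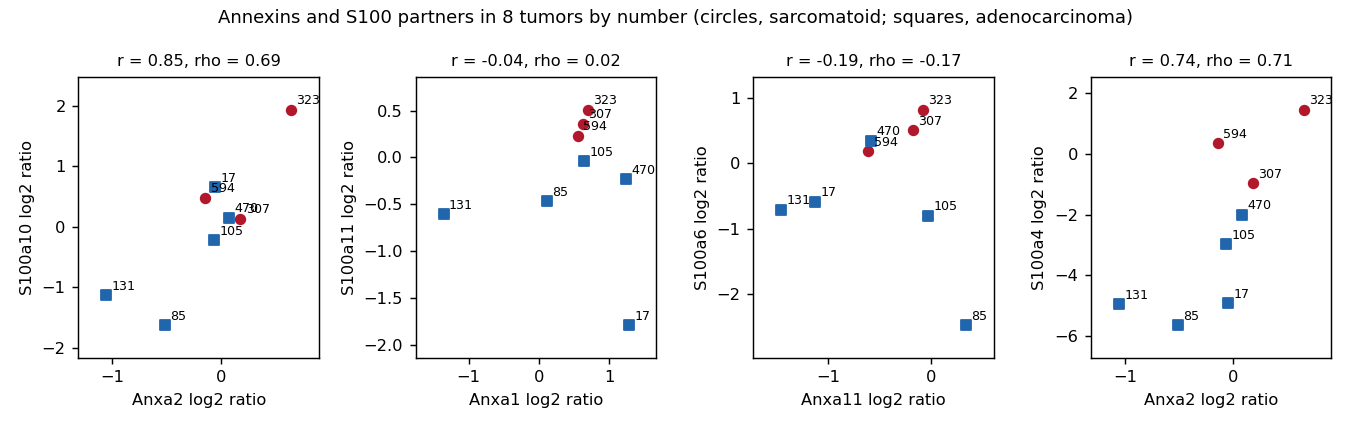
Log2 ratio of an S100 partner (y axis) against that of an annexin (x axis) in 8 tumors by number, circles for sarcomatoid tumors and squares for adenocarcinomas. In the panel of Anxa2 and S100a10 tumor 323 lies at the top right and tumors 131 and 85 at the bottom left, and the panels of Anxa1 and Anxa11 show no common order. The S100a11 value of tumor 17 comes from a flagged spot.

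For the 3 annexins with the largest differences, the genes with the most similar pattern over the 10 tumors were looked up among 11824 genes well above background on every array, as a description only. Anxa5 was most like Dusp9 (r = 0.97), Lgals1 (r = 0.96) and Vim (r = 0.96). Dusp9 is a phosphatase of MAP kinases, Lgals1 is galectin-1, and Vim, vimentin, is an intermediate filament protein of mesenchymal cells. Vim differed by 1.49 and Lgals1 by 2.46 between sarcomatoid tumors and adenocarcinomas (limma adjusted p = 0.494 and 0.355). Anxa8 was most like St8sia5, Acaa1a and Pinx1 (r = 0.95 for each), and Anxa3 most like Slbp (r = 0.98), Lca5 (r = 0.95) and Cryzl1 (r = 0.95). The points of such a correlation share the array, and a single tumor weighs heavily, such as tumor 105 for Anxa8 and tumor 131 for Anxa3.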

How the data were processed

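RNA of 10 tumors was measured on 10 two-channel Agilent arrays, 1 per tumor. The authors deposited scanner files, holding spot intensity and the log10 of the red/green ratio, and a normalized table on a log2 scale, for which their methods name limma without the steps. Its column medians were 0.0100 and -0.0139 (mammary and lung tumor 323), 0.0669 and -0.0515 (307), 0.0388 (594), 0.00570 (105), -0.0160 (131), 0.0456 (470), -0.0169 (17) and -0.0373 (85), so columns are centred near 0; scale and centring follow from the values, and the direction is likely only. In the columns of scan batches 1 and 2, 444 to 1529 probes shared 1 value, against 23 to 35 in batch 3, and 99.7% to 100% of these were not well above background; what was done to them is not stated.

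Spots of a probe were averaged and 134 control rows dropped, which left 40196 probes. Genes were named through accessions, symbols or synonyms of the RefSeq table (22951, 6659 and 3109 of 41174 array probes; 8455 stayed unnamed). Groups were compared with limma 3.58.1 in R 4.3.3 (lmFit, eBayes, Benjamini-Hochberg over all probes, threshold 0.05): sarcomatoid against adenocarcinoma in a fit on group, and lung against mammary sarcomatoid in a fit on 3 groups. Scan batches are the 3 versions of the extraction protocol in the file headers: batch 1 held mammary tumor 323, batch 2 tumors 307, 594, 105 and 470, batch 3 the others. Correlations used exact permutations of 8 tumor numbers. Well above background is the scanner's call for the red channel, made for 52.2% to 83.0% of probes; the number of arrays limits the precision. In the group fits each array counted as 1 replicate, so their p-values measure the spread between arrays, with 2 tumor numbers present at both sites. Arrays of the same tumor number counted separately there and are not independent. Alternatives were scanner intensities with normexp (offset 50) and loess or median centring, the scanner log ratio, median centring and quantile normalization of the table, a filter on dim probes, scan batch, slide and tumor number terms, subsets of tumors, and leaving out each array, with fits within 1 scan batch and correlations with group means subtracted added later. The statistics were tested on simulated data. The limma simulation drew independent values for each array, without scan batches or shared tumor numbers, so it does not cover those. Named genes were all members and the lists given; for the similar patterns, the 3 members with the largest differences. The members and lists were chosen with earlier results of these data known.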

Additional observations from a re-analysis of the deposited data

Results flagged for a closer look

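Values of the 10 annexins and of 10 named partners were searched for a tumor far from the others of its group, in 40 groups of 5 tumors, where chance gives about 2 such tumors. There were 2. Anxa9 had a log2 ratio of 1.46 in adenocarcinoma 17, while the other 4 adenocarcinomas lay between -0.56 and -0.26. The gap made up 0.850 of the range of the group. Fpr1 had 3.86 in adenocarcinoma 470, while the other 4 lay between 1.09 and 1.59 (0.819 of the range), and tumor 470 is also the adenocarcinoma with the low epithelial marker mean.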

How the results depend on the processing

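No annexin passed an adjusted p of 0.05 in any of the 24 alternatives between sarcomatoid tumors and adenocarcinomas (lowest limma adjusted p 0.131) or the 21 between lung and mammary sarcomatoid tumors (lowest 0.199). By their brightest probes, Anxa2, Anxa3 and Anxa5 stayed higher, and Anxa6 and Anxa8 lower, in sarcomatoid tumors in all of the former. Fits within 1 scan batch and correlations with group means subtracted were added after seeing the data. The cause of the changes below was not tested. Between sarcomatoid tumors and adenocarcinomas, 0 probes were called (3709 at an unadjusted p of 0.05), 1 with normexp and median centring, 2 with 1 value per tumor number, 0 within scan batch 2, 293 within scan batch 3, and 0 to 618 when an array was left out, 618 being without tumor 470. Without it, the differences of S100a4 (4.87), Fpr1 (1.97), Fpr2 (3.41) and Plau (3.10) passed. Between lung and mammary sarcomatoid tumors, 10 probes were called, 2 with loess, 3 with median centring of scanner intensities, 5 with the scanner log ratio, 6 with the table centred on medians, 22 with quantile normalization, 0 with a scan batch term (2589 at an unadjusted p of 0.05), 0 with the tumor number as replicate block (5336), 0 with sarcomatoid tumors only (5664), and 0 to 84 when an array was left out: 0 without mammary tumor 323, mammary tumor 307 or tumor 17, 1 without tumor 594, 105 or 85, 5 without either lung tumor and 84 without tumor 470. The block changed no annexin call.

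Signs of small differences between sarcomatoid tumors and adenocarcinomas turned. Anxa4 was at -0.075 with median centring of scanner intensities, -0.000164 with slide as a random block, -0.00706 as the mean over probes, -0.23 in mammary tumors only, -0.25 within scan batch 2 and from -0.067 to 0.17 when an array was left out. Anxa7 was at -0.097 with median centring of scanner intensities, -0.021 with the scanner log ratio, -0.28 with a scan batch term, -0.00633 with 1 value per tumor number, -0.30 within scan batch 2, -0.26 within batch 3 and from -0.23 to 0.30 when an array was left out. Anxa9 was at 0.024 with quantile normalization, 0.14 with a scan batch term, 0.010 with slide as a random block, 0.17 within scan batch 2, 0.12 within batch 3 and from -0.32 to 0.34 when an array was left out. Anxa1 was at -0.13 within scan batch 2 and ran from -0.18 to 0.48 when an array was left out. Anxa11 was at -0.30 within scan batch 2. Between lung and mammary sarcomatoid tumors, a scan batch term gave 0.26 for Anxa1, 0.42 for Anxa3, 0.047 for Anxa7, 0.31 for Anxa8 and -0.051 for Anxa9, the mean over probes gave 0.37 for Anxa3, and leaving out an array gave -0.098 to 0.74 for Anxa2 and -0.062 to 1.41 for Anxa9.

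When a tumor was left out, r of Anxa2 with S100a10 was 0.75 to 0.89 and passed without tumor 594 or 17 only, and it was 0.77 and did not pass with group means subtracted; r of Anxa2 with S100a4 was 0.59 to 0.84 and passed without tumor 594 or 17. Both pairs passed by r with loess (0.85 for S100a10 and 0.79 for S100a4), over 10 arrays (0.87 and 0.74) and with scan batch means subtracted (0.87 and 0.71). Over 10 arrays and with scan batch means subtracted, arrays of the same tumor number counted as separate points. Passing in those settings therefore does not rest on independent tumors. Anxa1 with S100a11 ran from -0.47 to 0.60, and was 0.65 with loess, where the flagged S100a11 spot of tumor 17 was left out. Anxa11 with S100a6 ran from -0.39 to 0.52, and was 0.14 over 10 arrays and 0.14 with scan batch means subtracted. Spots not well above background have little signal, which limits the dim Anxa3 and Anxa4 probes, Anxa10, Anxa13 and Plg.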
